A study of Mus musculus with 34 samples.

Results

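The data described here are the liver transcriptomes of 10 male mice fed a high-fat diet (HFD), 5 Bcl2AdTG and 5 WT, taken from the 34 livers of the series by the genotype and diet in their labels. All 14436 genes of the count table of these mice were compared between the genotypes, and lists of genes by pathway and cell type were read out of that comparison. Bcl2AdTG mice carry a Cre-inducible Bcl2 transgene that is switched on by Adipoq-Cre, a driver active in adipocytes, and WT mice are their littermates. Both groups started at 8 weeks of age on a diet with 60% of its energy from fat and stayed on it for 3 months, and each mouse gave 1 library of polyadenylated RNA from whole liver. Mice on chow with 10% of energy from fat (3 WT and 3 Bcl2AdTG) were in the same table and entered the fit, and their levels are given as background. The transgene acts in fat, which was not analysed here, so every difference below was measured in a tissue other than the one the driver targets.

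As background, a liver under a fat-rich diet stores triglyceride in hepatocyte lipid droplets, recruits monocytes that become macrophages laden with lipid, and activates stellate cells, which lay down collagen. Hepatocytes meanwhile carry the housekeeping of the body, making plasma proteins, urea and bile acids and clearing drugs and hormones, and in male mice part of this programme is set by the pulses of growth hormone acting through STAT5. BCL2 itself protects cells from apoptosis by holding BAX and BAK in check at the mitochondrion.

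Library totals ran from 21758112 to 52395073 counts in HFD-fed WT and from 22866258 to 39909892 counts in HFD-fed Bcl2AdTG livers. The libraries numbered 1 to 3 were deeper (28187998 to 52395073 counts) than those numbered 4 and above (21758112 to 26237562 counts). Mitochondrial genes took 4.97% to 7.49% of the counts in 9 of the HFD-fed libraries and 1.73% in WT mouse 2. Bcl2 (ENSMUSG00000057329, chromosome 1 of GRCm38 from 106538178 to 106714274) was at 21.3 CPM (counts relative to the effective library size) in WT mouse 1, at 2.72 to 2.94 CPM in the other 4 WT livers and at 8.98 to 14.8 CPM in the Bcl2AdTG livers. The level followed the genotype label in 9 of the 10 HFD-fed livers but not in the library labelled WT mouse 1, which lay above all of the Bcl2AdTG livers. The chow-fed livers were at 7.75 to 11.3 CPM (WT) and 4.16 to 8.44 CPM (Bcl2AdTG). Gene counts do not tell the transgene from the endogenous gene, and the labels were kept. The difference did not pass the test (log2 fold change 0.76 with a standard error, SE, of 0.49, adjusted p = 0.393), and without WT mouse 1 it was 1.98 (adjusted p = 0.000187), a fit in which 886 genes were called in all. The hepatocyte genes Alb and Apoa1 were high in all 10 livers (Alb from 48160 to 82370 CPM). The adipocyte genes Adipoq, Plin1, Lep and Retn were not analysed here, and the 5 adipocyte markers in the table summed to 3561 to 4727 CPM in WT and 3699 to 7035 CPM in Bcl2AdTG livers, most of it from Car3, which hepatocytes also make. Of these 5, Fabp4 was lower (log2 fold change -1.20, adjusted p = 0.00879, or 0.0583 with a covariate for markers of adipocytes, smooth muscle and mesothelium and 0.0662 with a score of clock genes over the 16 livers) and none was higher in Bcl2AdTG livers, against 2 lower without Bcl2AdTG mouse 6 and 1 higher without WT mouse 2.

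HFD-fed Bcl2AdTG livers differed from HFD-fed WT livers in lower levels of part of the genes of lipid storage, of lipid-associated macrophages, of the extracellular matrix and of the cell cycle, and in higher levels of part of the male-biased hepatocyte genes and those of amino acid catabolism. Of 14436 genes tested, 968 (6.71%) were called, 619 (4.29%) lower and 349 (2.42%) higher in Bcl2AdTG livers at an adjusted p under 0.05 from the quasi-likelihood test of edgeR. The genes called lower had a median log2 fold change of -0.92 and those called higher one of 0.68, against 0.01 over all genes. An unadjusted p under 0.05 was met by 21.7% of the genes. The counts in the lists below are to be read beside the shares of 4.29% lower and 2.42% higher over all genes. The groups did not overlap for 7.29% of the genes, 654 that were lower (4.53%) and 398 that were higher (2.76%), and 441 and 239 of these were also called. Along the first principal component of the 10 livers, which held 45.4% of the variance among 500 variable genes, WT livers scored from -28.7 to -5.5 and Bcl2AdTG livers from 11.6 to 25. The plot of all genes shows the longer arm on the side of the losses.

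**Figure D1:**
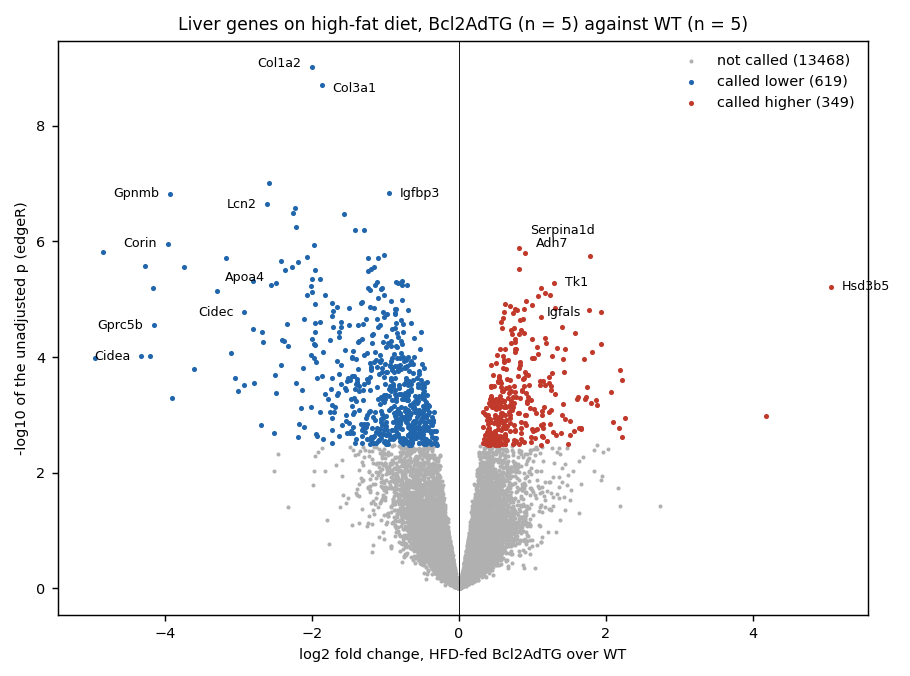
Each point is 1 of 14436 genes, with the log2 fold change of HFD-fed Bcl2AdTG over HFD-fed WT livers on the x axis and the negative decimal logarithm of the unadjusted edgeR p on the y axis. The 619 genes called lower are blue and the 349 called higher red, and the named genes are those described in the text.

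The count of 968 genes depended on which mice were in the fit and on covariates. It was 497 without WT mouse 4, 517 without WT mouse 5, 602 without Bcl2AdTG mouse 1 and 636 without Bcl2AdTG mouse 5. Among mice numbered 1 to 3 alone it was 27 and among those numbered 4 and above 915. A clock score was taken as the first principal component of 20 clock genes, signed to rise with Dbp. No gene was called with the score of the 10 HFD-fed livers as a covariate in edgeR (1460 genes at an unadjusted p under 0.05), a setting chosen after seeing the data, while with a clock score over all 16 livers 559 genes were called. The score over the 10 livers ran from -1.19 to -0.21 in WT and from -0.27 to 1.84 in Bcl2AdTG livers, so that it nearly separated the genotypes. Hours of collection are not given in the sources used here, and time of day and genotype cannot be told apart in these libraries. The score over all 16 livers ran from -1.78 to -0.21 on chow and from 0.14 to 1.71 on HFD. Chow levels given as background therefore come from livers that also differ in clock genes. The fit on mice numbered 1 to 3 alone shared 26 of the 968 calls and that on mice numbered 4 and above 490. The genes named below kept their call without any single mouse unless stated. Of the 100 called genes that the text names, 86 lost the call among mice numbered 1 to 3 alone and 21 among those numbered 4 and above. All 100 had the same direction in both fits.

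**Figure D2:**
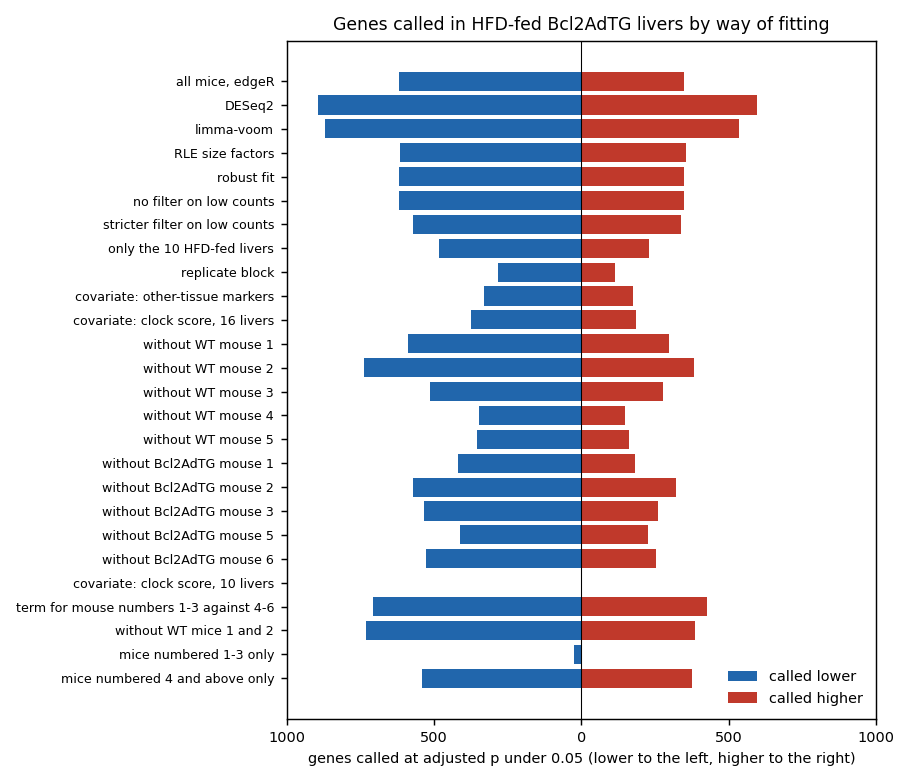
Bars give the number of genes called lower (blue, to the left) and higher (red, to the right) in HFD-fed Bcl2AdTG livers under each way of fitting the data, starting at 0. The count falls to 497 without WT mouse 4 and to 0 with the clock score of the 10 livers.

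Genes of lipid droplets and of PPARgamma, the nuclear receptor that drives fat storage, were lower in Bcl2AdTG livers. Of 20 such genes 12 were called lower and none higher, with a median log2 fold change of -0.86, and 1 was higher with DESeq2 or without WT mouse 2. The study named Cidec, Cd36, Pparg, Ucp2, Plin2 and Fabp4 of this list, and Ccl2 of the chemokines that follow, on these mice, so that the counts they are part of are not independent evidence of a direction. Cidec (ENSMUSG00000030278, chromosome 6 from 113424634 to 113435760), which enlarges lipid droplets by letting them exchange fat, was at 52.6, 20.9, 72.2, 70.3 and 87.7 CPM in WT mice 1 to 5 and at 3.03, 8.59, 5.4, 5.55 and 17.9 CPM in Bcl2AdTG mice 1, 2, 3, 5 and 6, the order used for all values below. Every Bcl2AdTG liver lay below the lowest WT liver, and the log2 fold change was -2.92 (SE 0.49, adjusted p = 0.00268), which is 7.58-fold lower. Its relative Cidea was at 9.33, 1.73, 13.4, 4.73 and 18.5 CPM in WT and at 0.0532, 0.771, 0.309, 0.185 and 1.15 CPM in Bcl2AdTG livers. WT mouse 2 was the lowest WT liver for both genes and Bcl2AdTG mouse 6 the highest of its group, and Cidea fell by 4.33 on the log2 scale (SE 0.85, adjusted p = 0.007). Cd36, whose product takes up fatty acids, was at 268, 170, 304, 351 and 286 CPM in WT and 50.6, 95.5, 85.7, 65.6 and 146 CPM in Bcl2AdTG livers (log2 fold change -1.64, SE 0.30, adjusted p = 0.00457). Of 21 genes of fatty acid uptake and binding 2 were lower (Cd36 and Fabp4), 1 higher (Lipc) and 18 not called. These are 9.52% and 4.76%, with a median log2 fold change of -0.165. Without WT mouse 2 the counts were 4 lower and 2 higher. The receptor gene Pparg itself was at 24.1, 20, 34.1, 31.9 and 31.4 CPM in WT and 10.4, 16, 14.4, 9.07 and 20.7 CPM in Bcl2AdTG livers. Bcl2AdTG mouse 6 reached the range of the WT livers here, and the fall in the mean from 28.3 to 14.1 CPM (adjusted p = 0.00808) lost its call with the covariate for markers of adipocytes, smooth muscle and mesothelium (adjusted p = 0.0579). Ucp2, a carrier of the inner mitochondrial membrane, fell by 1.11 on the log2 scale (adjusted p = 0.00857). Plin2, which coats lipid droplets, fell by 0.70 (adjusted p = 0.0144, or 0.0811 with the clock score of 16 livers).

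Apoa4, which encodes an apolipoprotein made by the liver in step with its fat content, was the apolipoprotein gene with the largest change. It was at 396, 261, 663, 704 and 765 CPM in WT and at 38.9, 140, 99.2, 61.9 and 158 CPM in Bcl2AdTG livers. The groups did not overlap, and the log2 fold change was -2.49 (SE 0.38, adjusted p = 0.00177), 5.6-fold lower. Chow-fed livers held 18.5 CPM (WT) and 28.3 CPM (Bcl2AdTG) on average. Of 21 genes of apolipoproteins and lipoprotein assembly Apoa4 was the only 1 called lower (4.76%, against 4.29% of all genes). In the same list 2 were called higher (9.52%, against 2.42%). The 2 became 0 without WT mouse 3, 4 or 5 or Bcl2AdTG mouse 1 or 5 and 1 without WT mouse 1 or 2 or Bcl2AdTG mouse 2 or 3, and the count of lower genes was 2 without WT mouse 1, 2 or 3 or Bcl2AdTG mouse 6 and 3 without Bcl2AdTG mouse 3.

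In fatty acid synthesis the losses were partial. Of 30 genes of lipogenesis 7 were lower and 2 higher (median log2 fold change -0.46), and the 7 became 11 without WT mouse 2, 4 without WT mouse 4 and 3 without WT mouse 5. Acacb, which makes the malonyl-CoA that holds back fatty acid oxidation, was at 112, 92.5, 99.5, 216 and 157 CPM in WT and 37.5, 39.9, 72.5, 34 and 62.6 CPM in Bcl2AdTG livers. WT mice 4 and 5 were the highest, no liver overlapped, and the log2 fold change was -1.46 (SE 0.29, adjusted p = 0.0071). The elongase gene Elovl7 was at 0.518, 1.4, 0.842, 5.84 and 2.81 CPM in WT and between 0 and 0.437 CPM in Bcl2AdTG livers (log2 fold change -3.05, adjusted p = 0.0112, or 0.076 with limma-voom). The 2 genes called higher were Dgat2, an enzyme of the last step of triglyceride synthesis (log2 fold change 0.37, adjusted p = 0.0451), and Mlxipl, the glucose-responsive factor ChREBP (0.58, adjusted p = 0.0254), named here after their values were seen. Both calls ended without WT mouse 3, 4 or 5 or Bcl2AdTG mouse 1, 3 or 6, and that on Dgat2 also without Bcl2AdTG mouse 2 or 5, which makes 8 of its 10 fits without 1 mouse. Cholesterol synthesis gave no call by edgeR, DESeq2 or limma-voom in 25 genes (median log2 fold change -0.32, 7 lower and 1 higher at an unadjusted p under 0.05), although 1 was called lower without WT mouse 3. Sqle, the squalene epoxidase of that pathway, was uneven among the WT livers. It was at 28.9, 25.4 and 16.7 CPM in WT mice 1 to 3, at 150 and 129 CPM in WT mice 4 and 5 and at 18.5 to 35.8 CPM in Bcl2AdTG livers (log2 fold change -1.32, SE 0.48, adjusted p = 0.117).

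Of 29 genes of fat oxidation 3 were lower and none higher (median log2 fold change -0.18), and 5 were lower with DESeq2 and 6 with limma-voom. Pdk4, a kinase that inhibits pyruvate dehydrogenase, was at 13.7, 14.3, 21.4, 23.8 and 26.4 CPM in WT and at 5.16, 11.7, 5.93, 5 and 11.2 CPM in Bcl2AdTG livers (log2 fold change -1.36, SE 0.25, adjusted p = 0.00491). Lipc, the hepatic lipase that the liver sends out to trim lipoproteins, went the other way. It was at 102, 120, 126, 82.1 and 84.8 CPM in WT and at 201, 147, 176, 187 and 162 CPM in Bcl2AdTG livers, with no overlap (log2 fold change 0.76, SE 0.13, adjusted p = 0.0026).

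**Figure D3:**
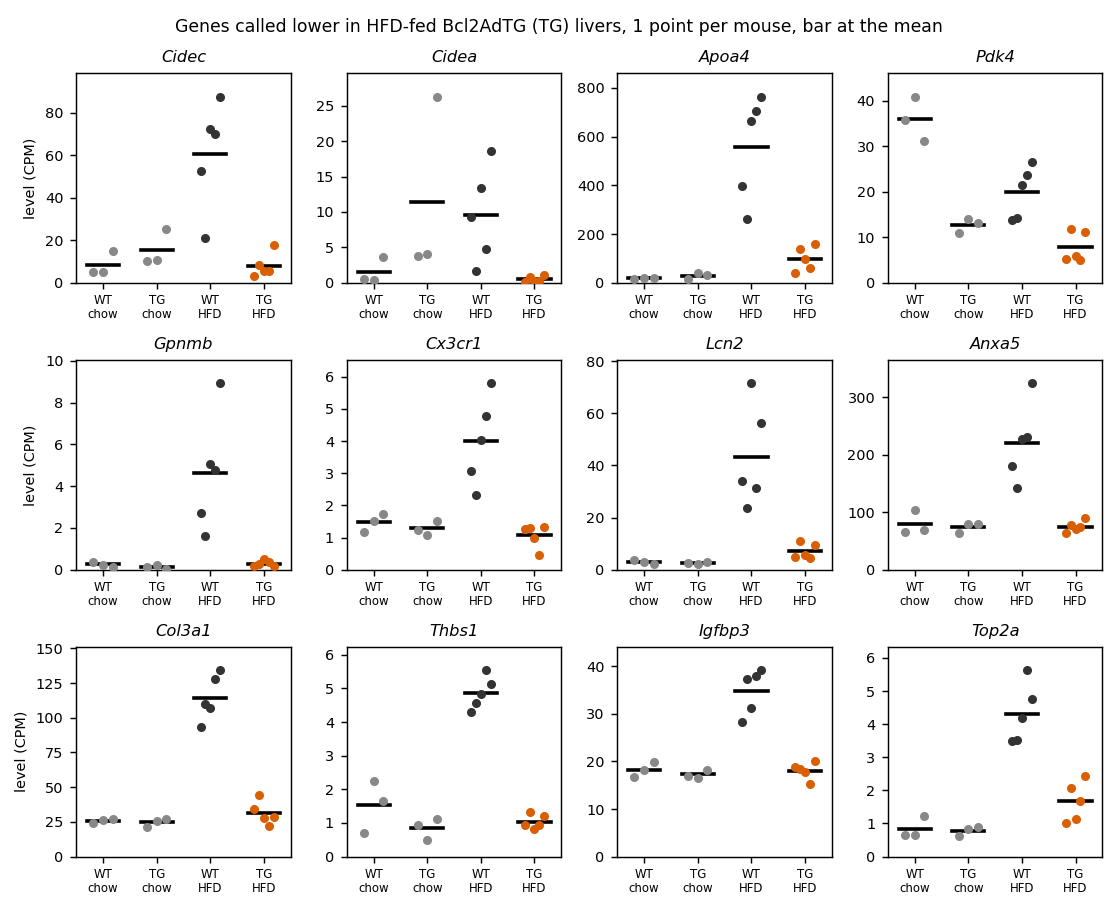
Panels give the level in CPM (linear y axis from 0) of 12 genes called lower, with 1 point per mouse and a bar at the group mean, in chow-fed WT and Bcl2AdTG (n = 3 each) and HFD-fed WT and Bcl2AdTG livers (n = 5 each). Cidec, for example, lies between 20.9 and 87.7 CPM in HFD-fed WT livers and between 3.03 and 17.9 CPM in HFD-fed Bcl2AdTG livers.

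The macrophage lists differed in their counts, with 8 genes of lipid-associated macrophages lower in Bcl2AdTG livers and no call among those of Kupffer cells, the resident macrophages of the liver. In bulk tissue, fewer cells of a type, less RNA per cell and less RNA of the same genes from other cells cannot be told apart. Of 16 genes of lipid-associated macrophages 8 were lower and none higher (median log2 fold change -0.94). All 8 lay outside the range of the other group, as did 441 of the 619 genes called lower in all. Gpnmb (ENSMUSG00000029816, chromosome 6 from 49036546 to 49070929), a glycoprotein of lysosomes that marks these cells, was at 2.71, 1.63, 5.07, 4.78 and 8.93 CPM in WT and at 0.16, 0.257, 0.5, 0.37 and 0.184 CPM in Bcl2AdTG livers. The lowest WT liver held more than the highest Bcl2AdTG liver, and the log2 fold change was -3.93 (SE 0.46, adjusted p = 0.000437), 15.3-fold lower. The elastase gene Mmp12 fell by 3.17 (adjusted p = 0.00124), and the annexin gene Anxa2 fell by 1.96 on the log2 scale (adjusted p = 0.00139). The tetraspanin gene Cd63 fell by 1.72 (adjusted p = 0.00293), and the lipid receptor gene Trem2 fell by 1.73 (adjusted p = 0.0111, or 0.0676 with the clock score of 16 livers). WT mouse 5 was the highest liver for Gpnmb, Mmp12, Anxa2, Cd63 and Trem2 alike. Of 10 Kupffer cell genes none was called by edgeR, DESeq2 or limma-voom or at an unadjusted p under 0.05 in edgeR, and 1 was called lower without Bcl2AdTG mouse 3. Their summed level was 189.8 to 366.2 CPM in WT and 162.7 to 409 CPM in Bcl2AdTG livers. Cd5l, a secreted protein of resident macrophages, was at 50.4 to 112 CPM in WT and 28 to 114 CPM in Bcl2AdTG livers (log2 fold change -0.49, adjusted p = 0.356). Of 12 genes of C1q and tissue macrophages 1 was lower (8.33%, against 4.29% of all genes) and none higher (median log2 fold change -0.36). The count was 3 with DESeq2, 0 with limma-voom and 0 to 4 without 1 mouse. The gene called lower was the cathepsin gene Ctss (log2 fold change -0.85, adjusted p = 0.0282), whose call ended without WT mouse 3, 4 or 5 or Bcl2AdTG mouse 2 or 5. The general macrophage marker Cd68 was at 8.48, 6.92, 11.2, 12.3 and 14 CPM in WT and at 7.02, 6.12, 8.28, 5.97 and 4.09 CPM in Bcl2AdTG livers and was not called (log2 fold change -0.74, adjusted p = 0.0888). Of 10 monocyte and neutrophil genes 2 were lower and none higher (median log2 fold change -0.65), or 3 lower with DESeq2 or limma-voom. They were Lcn2, which hepatocytes also make, and Ccr2, the receptor that brings monocytes out of the marrow. Ccr2 was at 2.64, 2.93, 8.67, 4.95 and 5.51 CPM in WT and at 2.58, 1.59, 2.17, 1.11 and 1.93 CPM in Bcl2AdTG livers (log2 fold change -1.39, SE 0.30, adjusted p = 0.0114, or 0.0598 with the covariate for markers of adipocytes, smooth muscle and mesothelium).

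Chemokine genes were called in both directions. Of 17 chemokine and chemokine receptor genes 6 were lower and 2 higher. Cx3cr1, a receptor of monocytes and the cells derived from them, was at 3.06, 2.33, 4.03, 4.78 and 5.79 CPM in WT and at 1.28, 1.28, 0.976, 0.463 and 1.33 CPM in Bcl2AdTG livers. No liver overlapped, and the log2 fold change was -1.89 (SE 0.28, adjusted p = 0.00177). Cxcl14 fell by 0.93 on the log2 scale (adjusted p = 0.00749), and Ccl2, the chief attractant of monocytes, was at 2.14, 2.03, 2.97, 3.2 and 2.95 CPM in WT and at 0.585, 0.874, 0.547, 0.648 and 0.46 CPM in Bcl2AdTG livers. The 2 genes called higher were Cxcr6, a receptor of resident T and NK cells, and the B cell attractant Cxcl13 (named after its values were seen), and without WT mouse 1 or 3 or Bcl2AdTG mouse 3 neither was called, and without WT mouse 2, 4 or 5 or Bcl2AdTG mouse 1 or 6 only 1 was. Cxcl13 was at 0.165 to 0.865 CPM in WT and at 0.736 to 8.14 CPM in Bcl2AdTG livers, with the 8.14 CPM in mouse 3 alone. Of 13 genes of MHC class II and dendritic cells 5 were lower and none higher, which became 3 without WT mouse 4 or 5 or Bcl2AdTG mouse 5 or 6 and 1 with limma-voom. The class II chain gene H2-Eb1 was at 23.3, 46.1, 37.2, 38.5 and 50.9 CPM in WT and at 28.1, 17.1, 20.8, 17.3 and 20 CPM in Bcl2AdTG livers, so that WT mouse 1 and Bcl2AdTG mouse 1 crossed over. The log2 fold change of H2-Eb1 was -0.92 (adjusted p = 0.0144 in edgeR, or 0.0697 with limma-voom). With the covariate for markers of adipocytes, smooth muscle and mesothelium in edgeR its adjusted p was 0.0868.

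Collagens formed the list with the highest share of calls, 15 of 18 lower and none higher (median log2 fold change -1.09). Members of type I, III, IV, V and VI collagen were among the 15. The study named Col1a1 on these mice and reported pathways of extracellular matrix organization and collagen synthesis as reversed in HFD-fed Bcl2AdTG livers. The counts of collagen genes here and of other matrix genes below are therefore not independent evidence of a direction. Col3a1 (ENSMUSG00000026043, chromosome 1 from 45311538 to 45349706), a fibrillar collagen of soft tissue, was at 93.1, 110, 107, 128 and 134 CPM in WT and at 34, 44.6, 27.7, 22.1 and 28.3 CPM in Bcl2AdTG livers. Col1a2, which encodes the second chain of type I collagen, was at 45.7, 52, 51.5, 58.1 and 74.2 CPM in WT and at 14.4, 17.7, 14.6, 9.53 and 14.1 CPM in Bcl2AdTG livers. The 2 genes had the smallest p of all genes tested (3.65-fold and 3.99-fold lower, adjusted p = 1.46e-05 and 1.39e-05). A small spread within a group beside the gap between the groups comes with such a p and is not a further result. The chow-fed groups averaged 25.8 and 24.7 CPM for Col3a1, close to the level of the HFD-fed Bcl2AdTG livers (31.4 CPM). Basement membrane collagen Col4a1 fell by 1.24 (adjusted p = 0.00124), and Col5a2, which sets the width of collagen fibrils, fell by 1.14 on the log2 scale (adjusted p = 0.00177).

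The proteins around the collagens and the enzymes that process them were lower too. Of 32 matrix glycoprotein and proteoglycan genes 15 were lower and none higher, and all 32 had a negative log2 fold change (median -0.80). Thbs1, an activator of latent TGF-beta, was at 4.29, 4.56, 4.84, 5.54 and 5.15 CPM in WT and at 0.931, 1.31, 0.833, 0.926 and 1.2 CPM in Bcl2AdTG livers (log2 fold change -2.23, SE 0.27, adjusted p = 0.000549). Sparc, which binds collagen during its assembly, was at 102, 132, 102, 148 and 157 CPM in WT and at 72, 61.2, 67.4, 59.2 and 56.8 CPM in Bcl2AdTG livers. The Sparc values did not overlap, with a log2 fold change of -1.02 (SE 0.14, adjusted p = 0.00124). Fbln2 fell by 1.42 (adjusted p = 0.000778), Tnc fell by 1.67 (adjusted p = 0.00258) and Postn fell by 1.10 on the log2 scale (adjusted p = 0.00124). Of the crosslinking enzymes, Lox averaged 1.59 CPM in WT and 0.387 CPM in Bcl2AdTG livers (adjusted p = 0.00187) and Loxl2 fell by 1.21 (adjusted p = 0.00184). Among 21 matrix proteases and inhibitors 13 were lower and none higher (median log2 fold change -0.74). They included Adamts2, which trims procollagen (log2 fold change -0.83, adjusted p = 0.00177), Pcolce, an enhancer of the protease that cuts procollagen at its other end (-0.61, adjusted p = 0.0071) and the plasminogen activator Plau (-1.17, adjusted p = 0.00416). The calls among matrix proteins and those among matrix proteases and inhibitors therefore stood on the same side of the comparison. The 13 were not split into genes that build matrix and genes that break it down.

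Markers of stellate cells, the main source of liver collagen, were lower for 5 of 18 genes and higher for none, a count that was 3 without WT mouse 4 or 5. The 3 that kept their call were Lox and Loxl2, described above with the matrix, and Vim, which is also on the cytoskeletal list. The stellate count is therefore not separate from those of the other lists. Vim, an intermediate filament of mesenchymal cells, was at 32.5, 39, 30.1, 32.8 and 41.1 CPM in WT and at 19.8, 18.8, 20.4, 17.3 and 19.3 CPM in Bcl2AdTG livers (log2 fold change -0.88, SE 0.15, adjusted p = 0.0028). The WT livers were all above the Bcl2AdTG livers. Smooth muscle and mesothelial markers, which would enter with vessel or capsule, gave no call in 8 genes by edgeR (2 lower at an unadjusted p under 0.05) and 1 lower by DESeq2, by limma-voom and without Bcl2AdTG mouse 6. They summed to 16.66 to 23.43 CPM in WT and 11.57 to 21.14 CPM in Bcl2AdTG livers. With the mean of these and the adipocyte markers as a covariate 329 genes were lower and 177 higher. In 13 cholangiocyte genes no call was made by edgeR (2 lower at an unadjusted p under 0.05), against 1 lower by DESeq2, 2 by limma-voom, 1 without WT mouse 2 and 2 without WT mouse 3.

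Acute phase genes, which hepatocytes turn on under cytokines, were lower for 7 of 23 members. Lcn2, an iron-scavenging lipocalin, was at 34, 23.7, 71.5, 31.4 and 56.5 CPM in WT and at 4.79, 11.1, 5.74, 4.58 and 9.29 CPM in Bcl2AdTG livers. Saa1, a serum amyloid, was at 115, 156, 256, 89.5 and 162 CPM in WT and at 35.5, 43.7, 33, 35.9 and 50.4 CPM in Bcl2AdTG livers. WT mouse 3 was the highest liver for both, and neither gene overlapped between the groups (log2 fold change -2.61 and -1.97, adjusted p = 0.000546 and 0.00122). The orosomucoid gene Orm2 fell by 1.71 on the log2 scale (adjusted p = 0.0036). The 1 acute phase gene called higher was Hamp2, a hepcidin gene (log2 fold change 1.56, adjusted p = 0.0359), and without WT mouse 1, 3, 4 or 5 or Bcl2AdTG mouse 1 or 6 its adjusted p was 0.0625 to 0.106, while without WT mouse 2 the count was 2.

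Annexins and the cytoskeleton were lower in part. Of 17 annexin and S100 genes 4 were lower and none higher. Anxa5, which binds phosphatidylserine on membranes, was at 181, 142, 227, 230 and 324 CPM in WT and at 63.2, 77.3, 70.2, 73.8 and 90.5 CPM in Bcl2AdTG livers (log2 fold change -1.56, SE 0.19, adjusted p = 0.000549). Of 28 tubulin, actin and other cytoskeletal genes 8 were lower and none higher, or 5 without WT mouse 5. The tubulin gene Tubb2a (ENSMUSG00000058672, chromosome 13 from 34074274 to 34078007) was at 229, 172, 261, 491 and 607 CPM in WT and at 48.9, 104, 48.2, 106 and 114 CPM in Bcl2AdTG livers. WT mice 4 and 5 stood above the other 3 WT livers, and all 5 were above the Bcl2AdTG livers (log2 fold change -2.06, SE 0.33, adjusted p = 0.00196). The mean was 221 CPM in chow-fed WT and 160 CPM in chow-fed Bcl2AdTG livers, so the HFD-fed Bcl2AdTG mean of 84.2 CPM lay below both. Tubulin genes are close copies of each other, and reads shared between them make single values uncertain. The tropomyosin gene Tpm1 fell by 0.85 on the log2 scale (adjusted p = 0.0034).

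Cell cycle genes were lower in 13 of 36 cases, with a median log2 fold change of -0.79, and 1 was higher. The count of 13 became 7 without WT mouse 4, 8 without WT mouse 5 or Bcl2AdTG mouse 3 and 20 with limma-voom. Of the 13 genes, 11 had a promoter in RefSeq (GRCm38.p6, 250 bases before to 50 after the start nearest to that of the gene). Promoters of cell cycle genes are known to carry sites for E2F factors, which open S phase, and the CHR element, through which genes of G2 and mitosis are held silent in resting cells. On either strand, the E2F letters TTTGGCGC stood in 3 of the 11 promoters (27.3%) and in 0.979% of the promoters of 10417 genes of the table, and the CHR letters TTTGAA in 5 (45.5%) and in 12.2% of all. The CCAAT box, searched as CCAAT on either strand, stood in 8 of the 11 (72.7%) against 38.8% of all. In all, 7 motifs were searched, in these and other lists of called genes, and the motifs not given here stood in 0 of the 11 promoters. Among all genes called higher, 47.3% of 245 promoters held that box, 18% the CHR letters and 0.408% the E2F letters. Among all genes called lower (476 promoters) the shares were 37%, 12.6% and 1.47%. The box and the CHR letters were thus not raised only in cell cycle genes. No promoter of the 11 held both the E2F and the CHR letters, and the CHR letters also stood in the promoter of Mcm2. Of the cell cycle genes only those called lower were counted as a group. These shares were therefore not set against those of cell cycle genes that were not called. A match describes the letters of the window and is not shown to be a site in use. The promoters of Top2a and Ccnb2 are given with TTTGAA in capitals and those of Mcm3 and Mcm6 with TTTGGCGC in capitals (either strand), to set the 2 kinds of promoter side by side. Mcm6 and Ccnb2 were chosen for these letters after their values were seen. All 4 are on the minus strand, at chr11:99024140-99024439, chr9:70421505-70421804, chr1:20820263-20820562 and chr1:128359656-128359955, and are printed 5′ to 3′ along the gene.
Top2a: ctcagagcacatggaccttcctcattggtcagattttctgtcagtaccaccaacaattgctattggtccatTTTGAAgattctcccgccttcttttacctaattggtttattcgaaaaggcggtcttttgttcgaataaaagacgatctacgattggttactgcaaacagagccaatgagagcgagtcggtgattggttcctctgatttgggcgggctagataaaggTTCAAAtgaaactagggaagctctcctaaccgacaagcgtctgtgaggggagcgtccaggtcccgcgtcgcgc
Ccnb2: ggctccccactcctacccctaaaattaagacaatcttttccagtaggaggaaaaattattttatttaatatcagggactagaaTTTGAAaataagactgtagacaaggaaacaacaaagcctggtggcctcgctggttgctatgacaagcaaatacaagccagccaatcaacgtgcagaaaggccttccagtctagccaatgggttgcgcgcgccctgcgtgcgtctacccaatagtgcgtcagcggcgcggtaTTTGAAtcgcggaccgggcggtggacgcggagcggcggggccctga
Mcm3: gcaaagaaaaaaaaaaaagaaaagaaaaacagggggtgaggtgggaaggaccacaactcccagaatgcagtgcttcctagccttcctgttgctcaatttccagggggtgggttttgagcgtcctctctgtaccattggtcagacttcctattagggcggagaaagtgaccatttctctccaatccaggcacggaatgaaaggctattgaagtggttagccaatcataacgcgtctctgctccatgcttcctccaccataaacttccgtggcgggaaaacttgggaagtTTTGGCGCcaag
Mcm6: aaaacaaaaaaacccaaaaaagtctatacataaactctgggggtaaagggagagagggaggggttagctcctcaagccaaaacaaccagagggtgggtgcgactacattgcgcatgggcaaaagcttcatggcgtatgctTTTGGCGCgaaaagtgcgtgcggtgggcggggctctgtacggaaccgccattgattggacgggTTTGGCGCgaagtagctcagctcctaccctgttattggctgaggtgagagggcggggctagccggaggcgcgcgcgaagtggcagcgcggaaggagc
The CHR letters of Top2a and of Ccnb2 occur at 2 places in each window, and those of E2F at 1 place in Mcm3 and 2 in Mcm6.

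The genes of both kinds were drawn from those called lower, so their direction was set by that choice. Top2a, the topoisomerase that untangles chromosomes, was at 3.49, 3.53, 4.17, 5.63 and 4.75 CPM in WT and at 1.01, 2.08, 1.14, 1.67 and 2.44 CPM in Bcl2AdTG livers (log2 fold change -1.38, SE 0.26, adjusted p = 0.00496). Mcm3, part of the helicase that opens DNA for replication, was at 8.46, 9.29, 9.33, 10.2 and 12.6 CPM in WT and at 5.77, 5.66, 4.36, 5 and 6.58 CPM in Bcl2AdTG livers (log2 fold change -0.87, SE 0.14, adjusted p = 0.0026). Neither gene overlapped between the groups, and chow-fed livers of both genotypes were lower than either HFD-fed group in mean (0.783 to 0.84 CPM for Top2a and 3.41 to 3.68 CPM for Mcm3). Mcm2 fell by 1.18 (adjusted p = 0.00504), Mcm6 fell by 0.83 (adjusted p = 0.00854) and the mitotic cyclin gene Ccnb2 fell by 1.46 on the log2 scale (adjusted p = 0.0108), the last 2 of which lost the call with the clock score of 16 livers (adjusted p = 0.0507 and 0.0609). Ccnd1, the cyclin of growth signals, fell by 1.45 (adjusted p = 0.0061). The cell cycle inhibitor Cdkn1a, whose known role is opposite, fell by 2.01 (adjusted p = 0.00678), the largest fall of the list. The 13 are therefore not all genes that drive division. The exception was Tk1, the thymidine kinase of S phase, at 6.9, 14.3, 8.55, 9.04 and 11.3 CPM in WT and at 34.3, 19.1, 27.4, 19 and 23.2 CPM in Bcl2AdTG livers. All 5 Bcl2AdTG livers were above the WT livers (log2 fold change 1.30, SE 0.20, adjusted p = 0.00177), and the chow-fed means were 24.9 CPM (WT) and 21.4 CPM (Bcl2AdTG). Among 27 genes of the BCL2 family and cell death 2 were lower and 2 higher (7.41% each, against 4.29% and 2.42% of all genes). The first count was 1 without any WT mouse other than mouse 2 or any Bcl2AdTG mouse other than mouse 2, and the second was 1 without WT mouse 4 or 5 or Bcl2AdTG mouse 1, 2 or 3. The necroptosis effector gene Mlkl fell by 0.80 (adjusted p = 0.00645), and the pyroptosis effector gene Gsdmd rose by 0.44 on the log2 scale (adjusted p = 0.0084).

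**Figure D4:**
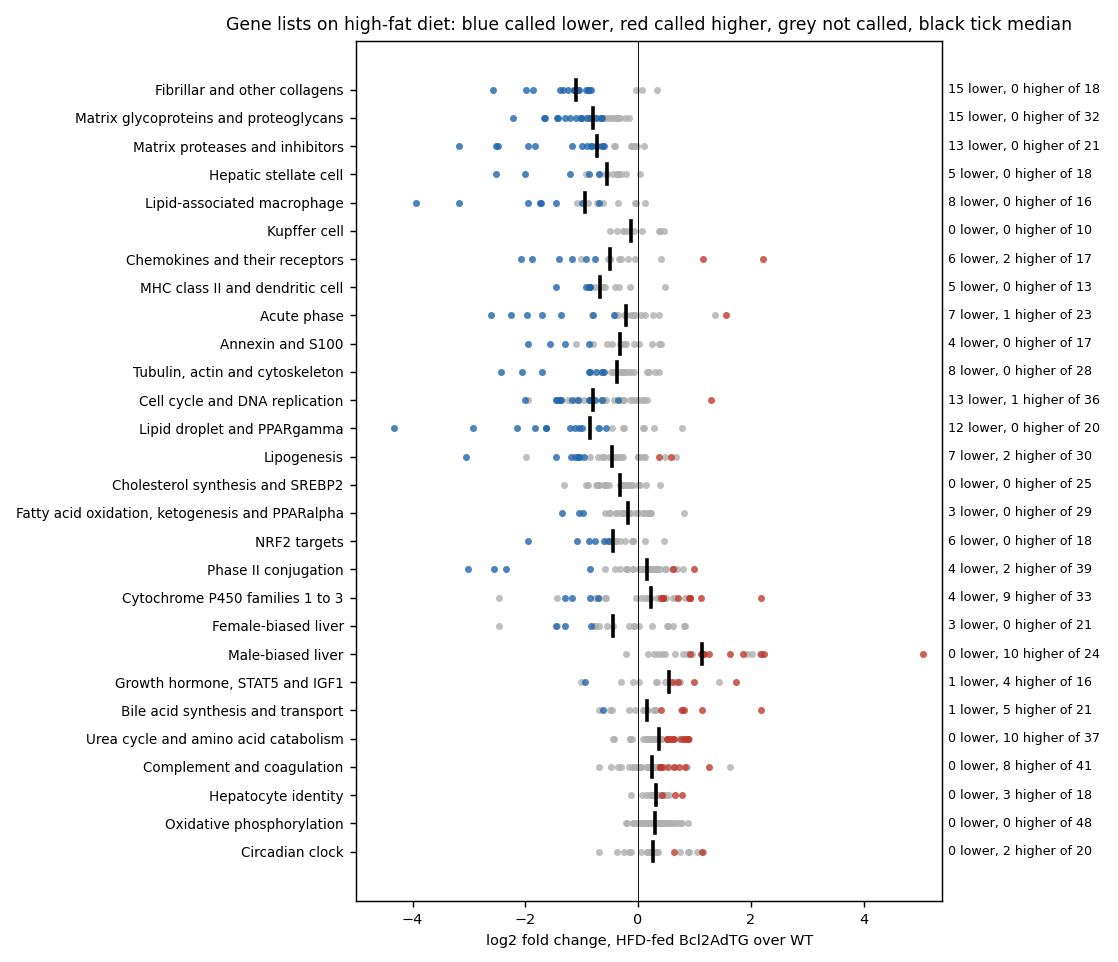
Each row is a gene list and each point 1 of its genes at its log2 fold change (HFD-fed Bcl2AdTG over WT), blue where called lower, red where called higher and grey where not called, with a black tick at the list median. The right margin gives the genes called lower and higher of those in the table, 15 and 0 of 18 for collagens and 0 and 10 of 24 for male-biased genes.

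On the other side of the comparison stood part of the male-biased liver genes. The action of growth hormone was not measured here. Of 24 genes that male mouse livers express above female livers 10 were higher and none lower in Bcl2AdTG livers (median log2 fold change 1.13), or 6 without WT mouse 4. Susd4, a complement regulator, was at 23.4, 14, 15.4, 9.46 and 11.5 CPM in WT and at 26.7, 39.9, 37.1, 37.8 and 24.6 CPM in Bcl2AdTG livers (log2 fold change 1.17, SE 0.22, adjusted p = 0.00469). The steroid enzyme gene Hsd3b5 was at 10.2, 1.1, 2.26, 0.171 and 0.144 CPM in WT and at 83.3, 128, 77.2, 166 and 29.3 CPM in Bcl2AdTG livers. WT mice 4 and 5 had the lowest levels of both genes, and the livers did not overlap, with a log2 fold change of 5.06 for Hsd3b5 (SE 0.78, adjusted p = 0.00178). The chow-fed means of Hsd3b5 were 272 CPM (WT) and 260 CPM (Bcl2AdTG), so HFD-fed Bcl2AdTG livers held less than chow-fed livers. Major urinary protein genes were among the 10, and as near-identical copies they are uncertain. Of 21 female-biased genes 3 were lower and none higher, or 5 without WT mouse 1 or Bcl2AdTG mouse 6 and 6 with DESeq2, and 1 was higher without Bcl2AdTG mouse 6. Rtn4, a shaper of the endoplasmic reticulum, was at 110, 137, 144, 146 and 164 CPM in WT and at 82.7, 65.3, 95.2, 83.1 and 68 CPM in Bcl2AdTG livers (log2 fold change -0.83, adjusted p = 0.00457). Cyp2c39, which shares sequence with other Cyp2c genes, fell by 1.30 (adjusted p = 0.00341).

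The IGF1 axis of the liver split by member. Of 16 genes of growth hormone, STAT5 and IGF1 4 were higher and 1 lower (median log2 fold change 0.54). Igf1, the hormone itself, was at 337, 358, 364, 241 and 287 CPM in WT and at 467, 444, 442, 493 and 565 CPM in Bcl2AdTG livers. Igfals, whose product holds IGF1 in its long-lived plasma complex, was at 70.5, 77.6, 70.6, 45.3 and 50.1 CPM in WT and at 138, 108, 121, 149 and 109 CPM in Bcl2AdTG livers. Neither gene overlapped between the groups, and the log2 fold changes were 0.60 and 0.99 (SE 0.12 and 0.16, adjusted p = 0.007 and 0.0025). Igfbp3 (ENSMUSG00000020427, chromosome 11 from 7206086 to 7213923), the third partner of that complex and in liver a product of cells other than hepatocytes, moved the opposite way. It was at 28.3, 37.3, 31.2, 38 and 39.2 CPM in WT and at 18.8, 18.4, 17.7, 15.2 and 20.1 CPM in Bcl2AdTG livers (log2 fold change -0.95, SE 0.11, adjusted p = 0.000437). The chow-fed means of Igfbp3 were 18.3 and 17.3 CPM, within the range of the HFD-fed Bcl2AdTG livers.

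Of 37 genes of amino acid catabolism and the urea cycle 10 were higher and none lower (median log2 fold change 0.38, 32 of 37 positive), and the 10 became 17 without WT mouse 2, 18 with DESeq2 and 21 with limma-voom. Hpd (ENSMUSG00000029445, chromosome 5 from 123171807 to 123182727), which breaks down tyrosine, was at 1471, 1550, 1678, 893 and 1076 CPM in WT and at 2596, 2304, 2299, 2591 and 2517 CPM in Bcl2AdTG livers (log2 fold change 0.88, SE 0.16, adjusted p = 0.00409). Ass1, which joins citrulline to aspartate in the urea cycle, was at 1520, 1965, 1767, 1130 and 1620 CPM in WT and at 3155, 2801, 2324, 3117 and 2701 CPM in Bcl2AdTG livers (log2 fold change 0.82, SE 0.15, adjusted p = 0.00416). Every Bcl2AdTG liver was above every WT liver for both, and WT mouse 4 was the lowest. Gls2, the liver glutaminase that feeds ammonia to the cycle, was at 266, 300, 259, 191 and 222 CPM in WT and at 527, 438, 415, 436 and 386 CPM in Bcl2AdTG livers (log2 fold change 0.83, SE 0.14, adjusted p = 0.0032). Cth, which turns cystathionine into cysteine, rose by 0.76 (adjusted p = 0.00366) and Nags, whose product switches on the first step of the cycle, by 0.51 on the log2 scale (adjusted p = 0.00678). The chow-fed means of Hpd were 1555 and 1747 CPM and those of Ass1 2300 and 2343 CPM, so that for both genes the HFD-fed Bcl2AdTG mean (2462 and 2820 CPM) was the highest of the 4 groups.

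Of 41 complement and coagulation genes 8 were higher and none lower (median log2 fold change 0.24), a count of 5 without WT mouse 3, 3 without WT mouse 4, 2 without WT mouse 5 and 4 without Bcl2AdTG mouse 1 or 5, and 1 was lower without Bcl2AdTG mouse 2. Kng1, the precursor of bradykinin, was at 1459, 2124, 2453, 1309 and 1307 CPM in WT and at 3172, 2575, 2723, 3462 and 3472 CPM in Bcl2AdTG livers (log2 fold change 0.83, SE 0.17, adjusted p = 0.00832). On chow Kng1 averaged 1977 CPM in WT and 3629 CPM in Bcl2AdTG livers (log2 fold change 0.88, adjusted p = 0.174). C8b, a part of the membrane attack complex and also on the male-biased list, rose by 1.27 (adjusted p = 0.007, or 0.0593 with the covariate for markers of adipocytes, smooth muscle and mesothelium). Of 18 hepatocyte identity genes 3 were higher and none lower, and 17 had a positive log2 fold change (median 0.32). Ahsg, the carrier protein fetuin-A, was at 3808, 3465, 2627, 3061 and 3385 CPM in WT and at 5330, 4401, 4255, 6190 and 5698 CPM in Bcl2AdTG livers, with no overlap (log2 fold change 0.66, adjusted p = 0.0074, or 0.0685 with that covariate). Serpina1d, a protease inhibitor gene in a cluster of close copies, had the smallest p of the genes called higher (log2 fold change 0.82, SE 0.11, adjusted p = 0.00124), at 1013 to 1432 CPM in WT and 1976 to 2416 CPM in Bcl2AdTG livers.

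**Figure D5:**
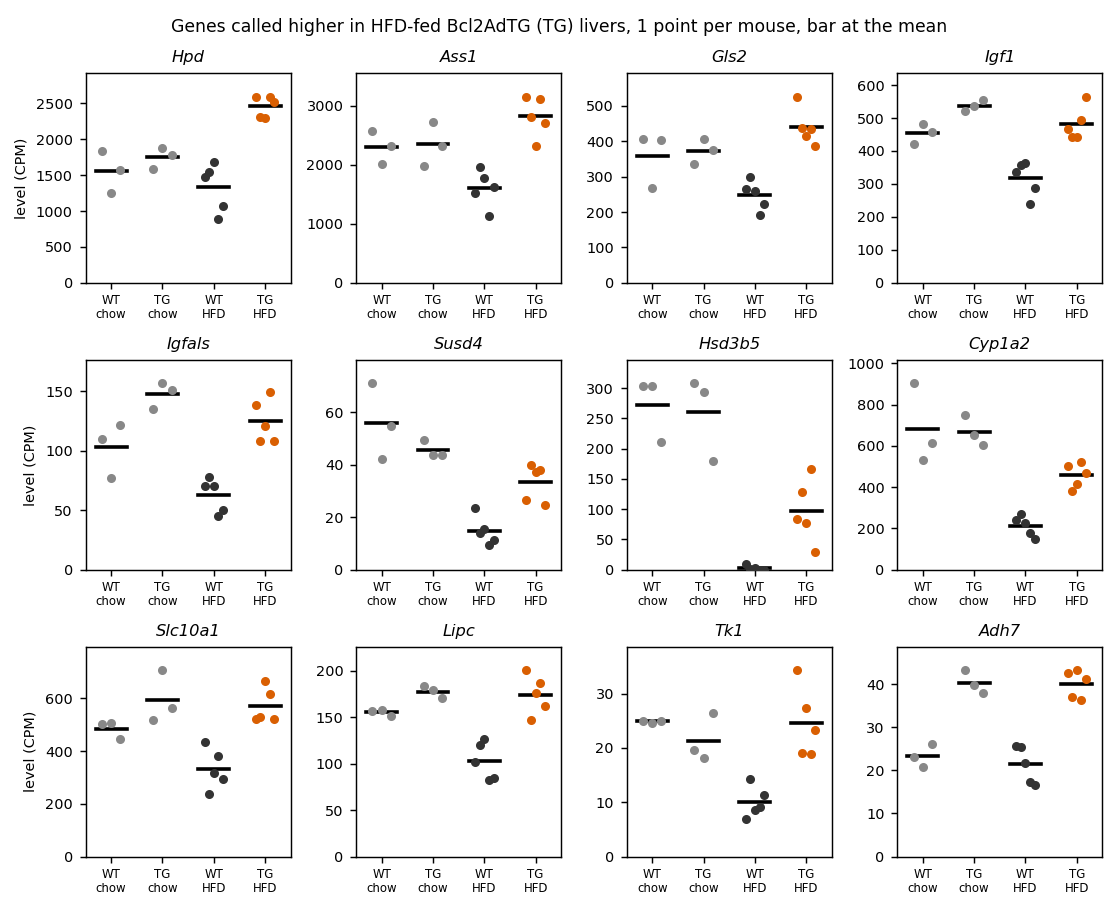
Panels give the level in CPM (linear y axis from 0) of 12 genes called higher, with 1 point per mouse and a bar at the group mean, in chow-fed WT and Bcl2AdTG (n = 3 each) and HFD-fed WT and Bcl2AdTG livers (n = 5 each). Hpd, for example, lies between 893 and 1678 CPM in HFD-fed WT livers and between 2299 and 2596 CPM in HFD-fed Bcl2AdTG livers.

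Enzymes of drug and steroid clearance moved in both directions. Of 33 cytochrome P450 genes of families 1 to 3 9 were higher and 4 lower. The 9 became 4 without WT mouse 4 and 5 without WT mouse 5 or Bcl2AdTG mouse 5. The 4 became 7 without Bcl2AdTG mouse 6 or with DESeq2 and 2 without WT mouse 4 or 5 or Bcl2AdTG mouse 2, 3 or 5. Cyp1a2 (ENSMUSG00000032310, chromosome 9 from 57676937 to 57683703), which clears caffeine and oestrogens near the central vein, was at 239, 270, 226, 179 and 148 CPM in WT and at 502, 383, 417, 523 and 470 CPM in Bcl2AdTG livers (log2 fold change 1.11, SE 0.17, adjusted p = 0.00178). No Bcl2AdTG liver came down to the WT range, and the chow-fed means were above both groups at 683 and 668 CPM. Cyp2c37, 1 of several similar Cyp2c genes, was at 132 to 330 CPM in WT and 317 to 440 CPM in Bcl2AdTG livers, where WT mouse 2 overlapped (log2 fold change 0.92, adjusted p = 0.0101). The bile acid uptake carrier gene Slc10a1 was at 433, 236, 318, 380 and 293 CPM in WT and at 521, 530, 668, 618 and 522 CPM in Bcl2AdTG livers (log2 fold change 0.78, SE 0.15, adjusted p = 0.00587). It was 1 of 5 genes called higher among 21 of bile acid synthesis and transport, where 1 was lower, and the 5 became 3 without WT mouse 4 or Bcl2AdTG mouse 1, 2, 3 or 5. The 1 became 0 without WT mouse 4 and 2 without WT mouse 2 or Bcl2AdTG mouse 2. The pericentral genes called lower were the Wnt target Tnfrsf19 (log2 fold change -1.16, adjusted p = 0.00139) and the citrate family carrier gene Slc13a3 (log2 fold change -0.79, adjusted p = 0.00491), and of 17 pericentral genes 2 were higher and 2 lower, with 1 higher without WT mouse 1, 4 or 5 or any Bcl2AdTG mouse.

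Of 39 phase II genes, which conjugate drugs and hormones, 4 were lower (10.3%, against 4.29% of all genes), 2 higher (5.13%, against 2.42%) and 33 not called. Their median log2 fold change was 0.15 (27 positive), with 6 lower and 8 higher at an unadjusted p under 0.05 in edgeR. The 4 were 3 glutathione transferase genes and Ugt1a9, and the 2 higher were sulfotransferase genes. The 2 became 1 without WT mouse 4 or 5 or Bcl2AdTG mouse 1, 3, 5 or 6. Gstm3 (ENSMUSG00000004038, chromosome 3 from 107963696 to 107969283) was at 42.7, 52.9, 102, 219 and 220 CPM in WT and at 21.6, 18.8, 15.1, 18.7 and 34.2 CPM in Bcl2AdTG livers (log2 fold change -2.56, SE 0.39, adjusted p = 0.00177). Gstm2 beside it was at 86.2 to 118 CPM in WT and 39.8 to 79 CPM in Bcl2AdTG livers (log2 fold change -0.85, adjusted p = 0.00714), and reads shared by these similar genes are uncertain. The glucuronosyltransferase gene Ugt1a9 fell by 2.35 (adjusted p = 0.00341). Sult1d1, which sulfates catecholamines, was at 109, 115, 127, 88.8 and 84.2 CPM in WT and at 162, 176, 152, 150 and 165 CPM in Bcl2AdTG livers (log2 fold change 0.62, SE 0.13, adjusted p = 0.00783). The highest WT liver was below the lowest Bcl2AdTG liver. Among 18 targets of NRF2, the factor that answers oxidative stress, 6 were lower and none higher, but only 1 without WT mouse 4, WT mouse 5 or Bcl2AdTG mouse 1, 2 without Bcl2AdTG mouse 5 and 3 without Bcl2AdTG mouse 2 or 3. Srxn1, which restores oxidised peroxiredoxin, kept its call in each of these fits, at 53.6 to 119 CPM in WT and 31 to 50.2 CPM in Bcl2AdTG livers (log2 fold change -1.08, adjusted p = 0.00348).

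Oxidative phosphorylation gave no call in 48 genes by edgeR, DESeq2 or limma-voom, although 42 had a positive log2 fold change (median 0.29, 7 higher and 1 lower at an unadjusted p under 0.05). The mitochondrial transcript mt-Co3, a subunit of complex IV, was at 261, 126, 101, 254 and 296 CPM in WT and at 283, 296, 280, 334 and 594 CPM in Bcl2AdTG livers (log2 fold change 0.79, SE 0.28, adjusted p = 0.108). WT mice 2 and 3 were low and Bcl2AdTG mouse 6 high, and the other livers lay together. Heat shock genes gave no call in 15 by edgeR (1 higher at an unadjusted p under 0.05) or DESeq2 and 1 lower by limma-voom.

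Of 20 clock genes 2 were higher, none lower and 18 not called (median log2 fold change 0.26, 15 positive), with 8 higher and 1 lower at an unadjusted p under 0.05, and without Bcl2AdTG mouse 2 the counts were 4 and 2. Dbp, an output gene of the clock with a steep daily rhythm, was at 31.7, 31.7, 29, 34.7 and 24.9 CPM in WT and at 79, 34.6, 106, 39.9 and 76.1 CPM in Bcl2AdTG livers (log2 fold change 1.14, adjusted p = 0.0727). Bcl2AdTG mice 1, 3 and 6 were high and mice 2 and 5 near the WT livers, and chow-fed livers averaged 0.85 CPM (WT) and 6.55 CPM (Bcl2AdTG). The related Tef was at 97.6, 104, 93.9, 90.4 and 74 CPM in WT and at 172, 104, 195, 110 and 133 CPM in Bcl2AdTG livers (log2 fold change 0.64, adjusted p = 0.0441). The call on Tef and that on Usp2 (1.13, adjusted p = 0.0409) ended in 8 of the 10 fits without a mouse, with an adjusted p up to 0.125 and 0.118, and was kept for both without Bcl2AdTG mouse 2 or 5. The repressor gene Nr1d1 was at 47.1 to 89.1 CPM in WT and 100 to 148 CPM in Bcl2AdTG livers (log2 fold change 0.75, adjusted p = 0.0772). Their part in the other differences was not tested beyond the covariates given above.

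Beyond the lists, several genes with the smallest p or the largest change belong to no list used here. Adh7, an alcohol dehydrogenase that oxidises retinol, was at 25.8, 25.3, 21.8, 17.4 and 16.7 CPM in WT and at 42.6, 37, 43.2, 36.4 and 41.1 CPM in Bcl2AdTG livers (log2 fold change 0.90, SE 0.13, adjusted p = 0.00124). Sucnr1, a receptor of succinate, rose by 0.81 (adjusted p = 0.00139), the vasopressin receptor gene Avpr1a by 1.17 (adjusted p = 0.00195) and the carbonic anhydrase gene Car1 by 1.07 on the log2 scale (adjusted p = 0.00201). None of the 4 genes overlapped between the groups. On chow Adh7 averaged 23.3 CPM in WT and 40.3 CPM in Bcl2AdTG livers (log2 fold change 0.79, adjusted p = 0.0776). Gprc5b, an orphan receptor, was at 5.18, 1.8, 7.09, 26.6 and 28.9 CPM in WT and at 0.558, 0.848, 0.5, 0.509 and 1.56 CPM in Bcl2AdTG livers (log2 fold change -4.16, SE 0.73, adjusted p = 0.00349). Corin, the protease that activates natriuretic peptides, was at 1.15, 0.632, 1.11, 3.15 and 2.73 CPM in WT and at 0.0476 to 0.16 CPM in Bcl2AdTG livers (log2 fold change -3.96, adjusted p = 0.00122). For Gprc5b and Corin WT mice 4 and 5 again stood highest, and WT mouse 2 was lowest. Kbtbd11 fell by 2.22 (adjusted p = 0.000778), and Aldh3a2, a dehydrogenase of fatty aldehydes, fell by 0.74 on the log2 scale (adjusted p = 0.00755, or 0.0511 with the covariate for markers of adipocytes, smooth muscle and mesothelium).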

How the data were processed

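Gene counts were deposited by the authors, whose methods name FastQC and Trimmomatic for read quality, HISAT2 (with SAMtools, on GRCm38) for alignment, featureCounts for counting and DESeq2 for their own comparisons, with no versions stated. The table also holds columns of the authors' comparisons, which were not used. Its 14628 rows hold 14436 genes, since a gene with several names is repeated with identical counts, and each was kept once. The lowest mean count was 7.12, so rarer genes were not analysed here. Names and positions came from GENCODE M21 (14425 genes).

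Counts were normalised by TMM and fitted with edgeR 4.0.16 (R 4.3.3) as 4 groups over 16 libraries, with no other term, and the contrast of the HFD groups was tested by quasi-likelihood with Benjamini-Hochberg adjustment over all genes and a threshold of 0.05. Called means past that threshold. The standard error (SE) is the size of the log2 fold change divided by the square root of F. CPM used TMM library sizes. DESeq2 1.42.0 and limma 3.58.1 (voom with quality weights) served as alternatives, beside covariates, other filters and size factors and leaving out each mouse. The pipeline was tested on simulated data. Named genes were first the 10 highest and 10 lowest log2 fold changes among called genes that met 2 conditions. These were no overlap between the HFD groups and a mean of at least 1 CPM in 1 of them. For genes chosen in this way non-overlap is therefore not a further result. To these came the 10 smallest p in each direction, the 8 largest gains and losses of CPM, up to 5 genes of smallest p per list, and genes the study names. The text gives a part of them. Lists, members and this rule were chosen with earlier results of these data known. Since the labels do not state how animals were housed or which were processed together, p-values measure the spread between these mice only. Promoters came from RefSeq (GRCm38.p6).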

Additional observations from a re-analysis of the deposited data

Results flagged for a closer look

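In 15 of the 218 groups of 5 livers tested, 1 liver lay apart from the other 4 by more than Dixon's critical value of 0.71 of the range, where chance gives about 5% of groups. Mitochondrial genes took 1.73% of the counts of WT mouse 2, against 4.97% to 5.73% in the other WT livers. Bcl2 was at 21.3 CPM in WT mouse 1 and at 2.72 to 2.94 CPM in the other WT livers, and Hsd3b5 was at 10.2 CPM in the same mouse and at 0.144 to 2.26 CPM in the others. WT mouse 5 was highest for Anxa2 (130 CPM, others 63.7 to 79.7), Cd63 (25.8 CPM, others 9.12 to 13.5), Trem2 (5.76 CPM, others 1.88 to 2.63) and Cxcl14 (5.15 CPM, others 3.58 to 3.84). WT mouse 2 was highest for Plau (4.76 CPM, others 3.46 to 3.56), Hamp2 (37.7 CPM, others 10.9 to 13.5), Gsdmd (32.5 CPM, others 25.4 to 27.1) and Avpr1a (20.8 CPM, others 13 to 15.1). Among Bcl2AdTG livers, mouse 6 was highest for mt-Co3 (594 CPM, others 280 to 334) and Hamp2 (108 CPM, others 23.1 to 46), mouse 3 was highest for Cxcl13 (8.14 CPM, others 0.736 to 1.25) and mouse 1 lowest for Mmp12 (0.213 CPM, others 0.452 to 0.514).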

How the results depend on the processing

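The count of 968 genes was 1488 with DESeq2, 506 with the covariate for markers of adipocytes, smooth muscle and mesothelium, 559 with the clock score of 16 livers and, in settings chosen after seeing the data, 0 with the clock score of the 10 HFD-fed livers (1460 at an unadjusted p under 0.05 in edgeR) and 27 among mice numbered 1 to 3. Without 1 mouse it ran from 497 to 1119. RLE size factors, a robust fit, no filter, a stricter filter, limma-voom and the 10 HFD-fed livers alone gave 713 to 1407. A replicate block on the mouse numbers gave 398 genes (115 higher and 283 lower). The numbers were not taken as a pairing, since the deviations of same-numbered mice correlated at -0.02, -0.31, 0.25 and 0.25, and no mouse correlated best with its own number. Bcl2 (0.76) passed the test without WT mouse 1 (1.98, against 0.55 to 1.98 over its fits without 1 mouse) and, in added settings, without WT mice 1 and 2 (1.96) and among mice numbered 4 and above (2.01). Usp2 turned to -0.014 with the clock score of the 10 livers (adjusted p = 0.988), of which it is a part. The causes of these differences between settings were not tested. Depth limits genes near 1 CPM, such as Elovl7 and Cidea in Bcl2AdTG livers.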

Other observations

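Lysosomal genes moved in part, with 6 of 38 lower and none higher in HFD-fed Bcl2AdTG livers (median log2 fold change -0.08), or 10 with DESeq2 and 4 to 9 without 1 mouse. The 6 include Gpnmb, Cd63 and Ctss, which were already counted in the macrophage lists. Psap, the precursor of the saposins that help degrade sphingolipids, was at 668, 753, 774, 754 and 836 CPM in WT and at 506, 547, 562, 573 and 423 CPM in Bcl2AdTG livers, with no overlap (log2 fold change -0.54, SE 0.10, adjusted p = 0.00587 in edgeR). The lysosomal glucuronidase gene Gusb was at 33.9 to 44 CPM in WT and 20.1 to 29.8 CPM in Bcl2AdTG livers (log2 fold change -0.54, adjusted p = 0.0102).

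Of 20 endothelial genes 3 were lower and none higher. Lyve1, a hyaluronan receptor of sinusoidal and lymphatic endothelium, was at 13.2, 9.62, 11.8, 10.5 and 15.7 CPM in WT and at 6.14, 6.32, 6.64, 2.73 and 3.45 CPM in Bcl2AdTG livers (log2 fold change -1.25, adjusted p = 0.00645, or 0.0512 with the covariate for markers of adipocytes, smooth muscle and mesothelium). Vwf, the von Willebrand factor of larger vessels, was at 9.66 to 15.3 CPM in WT and 4.63 to 7.96 CPM in Bcl2AdTG livers (log2 fold change -0.79, adjusted p = 0.00888, or 0.0515 with the clock score of 16 livers). Neither gene overlapped between the groups. Among 11 lymphocyte genes Cxcr6 and Cd4 were higher and none was lower. Cd4 was at 0.682 to 1.11 CPM in WT and 1.25 to 1.9 CPM in Bcl2AdTG livers (log2 fold change 0.88, adjusted p = 0.0462), a call that ended in 9 of the 10 fits without 1 mouse (adjusted p up to 0.122).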
